A study of Homo sapiens with 4 samples.

Results

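The proteasome is the large protease that degrades most ubiquitin-tagged and many oxidised proteins in the cytosol and nucleus. Its genes were taken here by name: all human RefSeq mRNA models whose symbol begins with PSMA, PSMB, PSMC, PSMD, PSME, PSMF or PSMG. The rule gave 49 of the 42067 gene symbols in the deposited tables and used no measured value. One of the 49, PSMC3IP, shares the prefix only and encodes a factor of homologous recombination, so it is given apart below. For each gene 1 transcript model was used, the one with most reads over the 4 libraries, since 28 of the 49 genes had 2 or more models that repeat much the same reads.

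RNA was sequenced from Huh7, an established line from a human hepatocellular carcinoma. The labels name no engineered allele, and both groups had their medium replaced every day for 4 days. The mock group received no H2O2 and the treated group received 300 µM H2O2, a diffusible oxidant. Each group had 2 libraries, titled with the letters H and Q, and the labels do not say what the letters stand for. Nothing in the labels says that the 2 libraries of a group came from separate cultures, so p-values here measure the spread between these libraries, which may be technical. All 4 libraries came from 1 cell line.

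The core particle, called 20S, is a barrel of alpha rings that gate the entry and beta rings that carry the proteolytic sites. The regulatory cap, called 19S, binds ubiquitin chains, removes them and unfolds the substrate with a ring of ATPases. Interferon exchanges the catalytic beta subunits for immunoproteasome counterparts, which favour peptides for antigen presentation. Dedicated chaperones build each particle. When proteasome activity is short, the transcription factor NRF1, encoded by NFE2L1, is cut free by the protease DDI2 and raises many subunit genes together through antioxidant response elements. NRF2, encoded by NFE2L2, recognises the same elements under oxidative stress.

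Mapped mates numbered from 78126878 to 88409567 per library, and the counts of 1 model per gene summed to between 103851326 and 113082498. Levels below are TMM-normalised CPM, that is counts scaled to a common effective library size. Where 2 values are given for a group, library H comes first and library Q next. Of the 49 genes, 46 passed the filter of 1 CPM in at least 2 libraries, each with 353 to 59048 reads per library. All 9 hepatocyte and Huh7 markers passed the same filter. Their summed level was 18574 CPM in mock H, 6144 in mock Q, 21026 in H2O2 H and 12453 in H2O2 Q. Mock Q was thus the lowest in this sum. ALB was 5992, 2630, 8926 and 5230 CPM in that order. Of the 9 markers, only TTR and HNF4A were not lowest in mock Q. TTR was highest there, at 17.8, 26.6, 14.5 and 20.6 CPM. HNF4A stood at 426, 234, 212 and 207 CPM. Blood-cell markers summed to between 425 and 602 CPM, nearly all of it LYZ at 402 to 583, with PTPRC at no more than 0.28, CD3E at no more than 0.176 and HBB at no more than 0.0207 CPM, and HBB had no read in either H2O2 library. Stromal and endothelial markers summed to between 16.9 and 26.1 CPM, mostly COL1A1. Because mock Q was lowest in most hepatocyte markers, the counts and medians of members by group are also given without it where they differ. Those of the pathway lists are given likewise.

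Promoter windows were read to show which regulatory motifs members share. Windows ran from 250 bases before to 50 bases after an annotated start and came from a RefSeq table of GRCh38.p14. They were given for 43 of the 49 genes. PSMA7, PSMB1, PSMB6, PSMB7, PSMD4 and PSMG3 had no entry. Motifs were searched on both strands. The antioxidant response element, TGACNNNGC, was found in 15 of the 43 members (34.9%) and in 16.1% of the 27305 genes with a window. The CCAAT box, CCAAT, bound by the NF-Y factors, was found in 21 members (48.8%) and in 39.7% of genes. PSMC3IP is among these 21 members. The interferon-stimulated response element, GAAANNGAAA, was found in 7 members (16.3%) and in 4.38% of genes. A gene counted if any of its windows held the motif, and genes differ in their number of windows. The 27305 genes are more than the 19124 gene symbols with a RefSeq mRNA model in the deposited tables. The shares of members and of genes are therefore not matched in kind of gene or number of windows. These matches describe letters in a window and not binding.

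Among the interferon-element matches, 5 members carried 1 same run of letters, GAAAGCGAAA on either strand. It was picked after the matches were seen, as the run that most of these members shared. It occurred in 34 of the 27305 genes (0.125%), these 5 included. The way it was picked favours a high count in members, so the 2 counts are no test. The 5 members are PSMB8 and PSMB10, both immunoproteasome subunits, PSME1 and PSME2, the paired subunits of the PA28 activator, and PSMG4, a core chaperone. Their windows are shown 5′ to 3′ on the gene's strand. Capitals mark this run or its reverse complement and, in PSME1 and PSME2, a match to the antioxidant response element as well. The windows lie at chr16:67936801-67937100 on the minus strand for PSMB10 and at chr6:32843998-32844297 on the minus strand for PSMB8. PSMB8 has a further annotated start upstream of the one shown. Its window, at chr6:32844630-32844929, held no match to any of the motifs searched. The PSME1 window lies at chr14:24135944-24136243 on the plus strand and the PSME2 window at chr14:24146561-24146860 on the minus strand. That of PSMG4 lies at chr6:3258697-3258996 on the plus strand.
PSMB10: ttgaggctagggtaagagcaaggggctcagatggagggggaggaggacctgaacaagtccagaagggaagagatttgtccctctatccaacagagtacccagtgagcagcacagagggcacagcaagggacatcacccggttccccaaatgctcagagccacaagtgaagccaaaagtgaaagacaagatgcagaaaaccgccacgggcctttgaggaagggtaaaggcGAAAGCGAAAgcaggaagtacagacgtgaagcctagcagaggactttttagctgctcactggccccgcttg
PSMB8: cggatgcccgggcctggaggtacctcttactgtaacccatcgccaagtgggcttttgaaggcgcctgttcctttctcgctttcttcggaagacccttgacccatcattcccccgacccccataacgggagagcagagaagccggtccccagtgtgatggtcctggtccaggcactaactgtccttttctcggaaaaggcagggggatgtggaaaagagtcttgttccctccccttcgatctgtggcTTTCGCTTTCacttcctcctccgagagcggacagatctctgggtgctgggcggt
PSME1: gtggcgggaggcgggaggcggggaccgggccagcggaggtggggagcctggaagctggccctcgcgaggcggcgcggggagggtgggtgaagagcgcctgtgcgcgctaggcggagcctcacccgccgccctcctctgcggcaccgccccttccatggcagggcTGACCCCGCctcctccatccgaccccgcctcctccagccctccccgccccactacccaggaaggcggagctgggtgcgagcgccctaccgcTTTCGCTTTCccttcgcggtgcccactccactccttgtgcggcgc
PSME2: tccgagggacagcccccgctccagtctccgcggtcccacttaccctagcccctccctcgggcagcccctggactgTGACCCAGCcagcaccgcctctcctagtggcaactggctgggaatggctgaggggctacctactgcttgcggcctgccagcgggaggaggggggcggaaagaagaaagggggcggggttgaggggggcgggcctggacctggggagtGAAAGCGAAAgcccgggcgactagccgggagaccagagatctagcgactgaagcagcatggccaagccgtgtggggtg
PSMG4: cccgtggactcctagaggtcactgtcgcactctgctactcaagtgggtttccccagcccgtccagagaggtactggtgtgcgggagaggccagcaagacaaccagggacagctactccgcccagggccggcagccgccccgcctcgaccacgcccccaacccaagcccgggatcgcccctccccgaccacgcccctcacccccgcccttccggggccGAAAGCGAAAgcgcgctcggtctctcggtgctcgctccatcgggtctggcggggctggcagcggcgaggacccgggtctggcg
The run begins 21 bases before the start in PSMB10, 28 before it in PSME2, 33 before it in PSMG4 and 4 before it in PSMB8, and at base 6 of the transcript in PSME1.

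A further pair of windows shows the other motifs in PSMA4 and PSMD10, which were picked with their fold changes known. They do not stand for the members with these motifs. PSME2 (log2 fold change 0.39) and PSMD12 (0.36), for instance, stood above PSMA4 (0.35). Median log2 fold changes with and without the motif were 0.15 and 0.17 for the antioxidant element and 0.15 and 0.16 for the CCAAT box. PSMA4, an alpha-ring subunit, has 3 annotated starts. The window of the first start, not shown, holds an interferon-element match 240 bases before it. The window of the last start lies at chr15:78540536-78540835 on the plus strand. It holds an antioxidant response element 126 bases before the start and a reverse CCAAT box 199 bases before it, both in capitals. PSMD10, a cap chaperone also known as gankyrin, has at chrX:108091493-108091792 on the minus strand a reverse CCAAT box 76 bases before the start, again in capitals.
PSMA4: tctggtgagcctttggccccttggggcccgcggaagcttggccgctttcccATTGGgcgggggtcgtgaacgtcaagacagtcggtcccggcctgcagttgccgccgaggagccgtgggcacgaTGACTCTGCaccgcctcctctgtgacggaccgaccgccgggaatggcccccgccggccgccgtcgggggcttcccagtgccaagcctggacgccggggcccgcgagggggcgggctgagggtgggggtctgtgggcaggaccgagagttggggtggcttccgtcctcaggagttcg
PSMD10: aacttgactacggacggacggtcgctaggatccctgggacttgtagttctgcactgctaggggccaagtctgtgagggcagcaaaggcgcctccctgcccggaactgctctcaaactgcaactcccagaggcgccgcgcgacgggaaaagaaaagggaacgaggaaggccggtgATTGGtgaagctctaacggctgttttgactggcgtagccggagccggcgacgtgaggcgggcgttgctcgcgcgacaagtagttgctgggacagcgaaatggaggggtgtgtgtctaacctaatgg

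The main comparison asked how the level of each member differed between H2O2-treated and mock cells. No member passed an adjusted p of 0.05 in edgeR's quasi-likelihood test over all 18547 genes, and the lowest adjusted p of a member was 0.672. The same test called 0.0% of all genes, with 1352 at an unadjusted p under 0.05, and DESeq2 called 162 genes, none of them a member. The differences were small. The log2 fold change lay within 0.5 of 0 for 44 of the 46 members (95.7%), against 80.4% of all genes tested. These shares are not matched in level. Members had a median of 91.6 CPM per kilobase of transcript, against 8.51 over genes with a matched length. Their median SE was 0.20, against 0.27 over all genes. For 43 members the 95% confidence interval lay within -1 and 1, so a change of the mean by a factor of 2 or more is outside it. All 31 tested subunits of the core and cap were among them. In bulk RNA, fewer cells with a transcript and less of it per cell cannot be told apart.

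Most members leaned the same way. The log2 fold change was above 0 in 39 of 46 members (84.8%), against 48.2% of all genes and 51.7% of genes with a RefSeq mRNA model. The median was 0.12, against -0.02 over all genes and 0.02 over those with an mRNA model. In 20 members both H2O2 libraries lay above both mock libraries (43.5%, against 18.8% of all genes). In 3 members, PSMB10, PSMD7 and PSMD9, both lay below (6.52%, against 21.4%). Without PSMC3IP, 38 of 45 members were higher and 19 of them did not overlap. Without the mock Q library, 29 of 46 members were higher and 17 lower, with a median of 0.08. Without mock H, 42 were higher and 4 lower, with a median of 0.21. The number of lower members thus depends on the mock libraries. Within the letter H, 33 members were higher in H2O2, within Q 42, and 32 in both. The median log2 difference was 0.06 within H and 0.19 within Q.

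**Figure D1:**
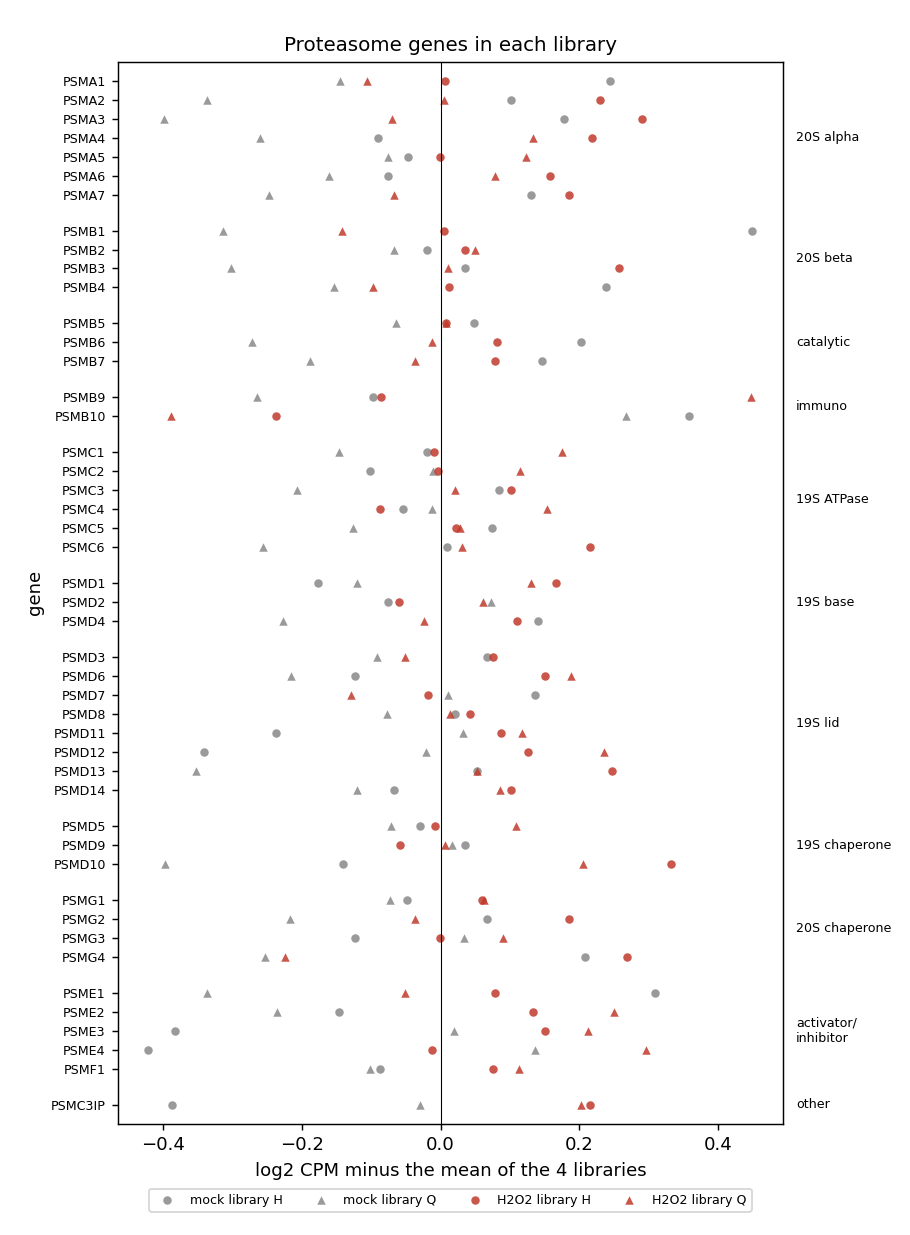
Level of each tested member in each library, as log2 CPM minus the mean of the 4 libraries (horizontal axis), with genes on the vertical axis grouped by role. Grey points are mock and red points H2O2, circles are library H and triangles library Q. The grey triangles of mock Q lie left of the grey circles of mock H for all 14 core subunits.

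**Figure D2:**
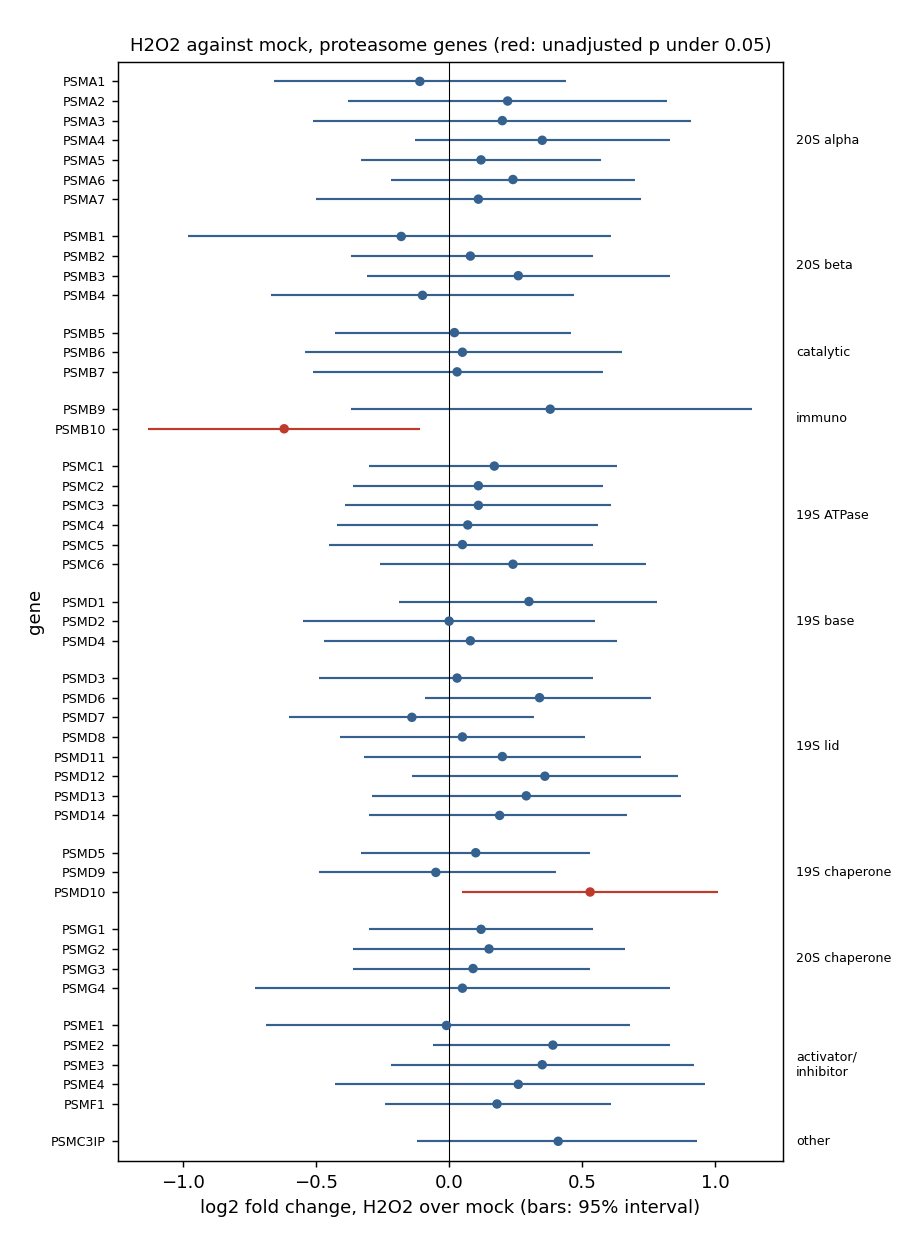
Log2 fold change of each tested member, H2O2 over mock (horizontal axis), with its 95% confidence interval from edgeR as a bar. Most points lie just right of 0, and 44 of the 46 bars hold 0. PSMB10 and PSMD10, in red, had an unadjusted p under 0.05.

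The 7 alpha-ring genes of somatic cells form the outer rings of the core. Of these, 6 had a log2 fold change above 0, with a median of 0.20. Without the mock Q library 4 of 7 did, with a median of 0.02, and without mock H 7 of 7, with a median of 0.31. PSMA4 stood at 198 and 176 CPM without and 245 and 231 CPM with H2O2. Both H2O2 libraries lay above both mock libraries, with a log2 fold change of 0.35 (SE 0.19, edgeR adjusted p = 0.704). PSMA6 stood at 177 and 167 CPM without and 208 and 197 CPM with H2O2, a log2 fold change of 0.24 (SE 0.18). PSMA5, which also did not overlap, had a fold change of 0.12 on the log2 scale. PSMA1 stood at 191 and 146 CPM without and 162 and 150 CPM with H2O2, and its groups overlapped (log2 fold change -0.11, SE 0.21). PSMA2, PSMA3 and PSMA7 had log2 fold changes of 0.22, 0.20 and 0.11 with overlapping groups. PSMA8, an alpha subunit known from the testis, had 0 and 4 reads in mock and 2 and 5 reads in H2O2 and was not tested.

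The structural beta subunits carry no active site. Of the 4, 2 had a log2 fold change above 0, with a median of -0.01. Without mock Q the median was -0.11, and without mock H 4 of 4 were above 0, with a median of 0.18. PSMB3 stood at 230 and 182 CPM without and 268 and 226 CPM with H2O2, a log2 fold change of 0.26 (SE 0.22) with overlapping groups. PSMB1 varied most between the mock libraries, at 378 CPM in H and 223 in Q, against 278 and 251 CPM in H2O2. Its log2 fold change was -0.18 (SE 0.31), lower within H by a log2 difference of -0.45 and higher within Q by 0.17. PSMB2 stood at 184 and 178 CPM without and 191 and 193 CPM with H2O2, so its groups did not overlap although they differed by only 0.08 on the log2 scale. PSMB4 had a log2 fold change of -0.10 with overlapping groups.

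The 3 constitutive catalytic subunits cut after basic, hydrophobic or acidic residues. PSMB5, the chymotrypsin-like subunit, stood at 148 and 137 CPM without and 144 and 144 CPM with H2O2. PSMB6, the caspase-like subunit, stood at 225 and 162 CPM without and 207 and 194 CPM with H2O2. PSMB7, the trypsin-like subunit, stood at 262 and 208 CPM without and 250 and 231 CPM with H2O2. In each the H2O2 libraries lay between the mock libraries, and the log2 fold changes were 0.02, 0.05 and 0.03. Without the mock Q library all 3 were below 0, with a median of -0.12. Without mock H all 3 were above 0, with a median of 0.21. The 95% confidence intervals ran from -0.43 to 0.46, from -0.54 to 0.65 and from -0.51 to 0.58.

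Over the whole core, 11 of 14 genes had a log2 fold change above 0, with a median of 0.10, and in 4 both H2O2 libraries lay above both mock libraries, against 18.8% of all genes. These values depend on the mock libraries: without mock Q, 6 of 14 were higher with a median of -0.05, and without mock H, 14 of 14 with a median of 0.26. Within H the core's median log2 difference was 0.05, and within Q it was 0.19.

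Immunoproteasome subunits stood far below their constitutive counterparts in every library. PSMB10 replaces PSMB7, PSMB9 replaces PSMB6 and PSMB8 replaces PSMB5. PSMB10 stood at 21.3 and 20 CPM without and 14.1 and 12.7 CPM with H2O2. Both H2O2 libraries were below both mock libraries, by a log2 difference of -0.59 within H and -0.65 within Q. Its log2 fold change of -0.62 (SE 0.20, 95% interval -1.13 to -0.11) was the lowest of the tested members. The unadjusted p was 0.0255 in edgeR and the adjusted p 0.672. Of all genes, 4.31% were lower with an unadjusted p under 0.05. PSMB9 stood at 3.65 and 3.25 CPM without and 3.68 and 5.32 CPM with H2O2, so H2O2 H was nearly level with mock H and H2O2 Q was the high library (log2 fold change 0.38, SE 0.29). PSMB8 had 57 and 87 reads in mock and 14 and 59 reads in H2O2, which is 0.589 and 0.738 CPM against 0.134 and 0.497 CPM. It was below the filter, and in the fit of all genes without a filter its log2 fold change was -1.03 (SE 0.58, adjusted p = 0.87). PSMB11, the subunit of the thymus, had 3 and 10 reads in mock and 1 and 9 reads in H2O2.

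Ratios within a library put each immunoproteasome subunit on the scale of its constitutive counterpart. PSMB10 was at 8.12% and 9.60% of PSMB7 in mock H and Q and at 5.66% and 5.50% in H2O2, in CPM. The H2O2 ratios lay below both mock ratios, a log2 difference of -0.66. PSMB9 was at 1.62% and 2.01% of PSMB6 in mock and at 1.78% and 2.74% in H2O2, where the groups overlapped. PSMB8 was at 0.399% and 0.538% of PSMB5 in mock and at 0.0932% and 0.345% in H2O2. The 3 immunoproteasome subunits summed came to 4.02% and 4.73% of the constitutive ones in mock and to 2.99% and 3.25% in H2O2, a log2 difference of -0.48, with PSMB10 the most abundant of the 3. A two-sided exact permutation test of 2 libraries against 2 cannot go below p = 0.333, which was its value for this sum, for the PSMB10 ratio and for the PSMB8 ratio. For the PSMB9 ratio it was 0.667. Per kilobase of transcript, PSMB10 was at 6.54% and 7.73% of PSMB7 in mock and at 4.55% and 4.42% in H2O2.

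**Figure D3:**
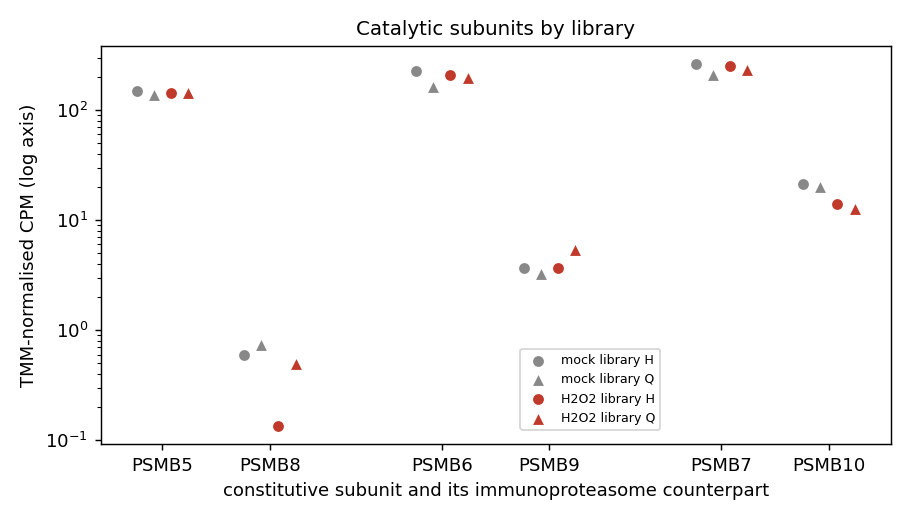
Level of the 3 constitutive catalytic subunits and of the immunoproteasome subunit that replaces each, in TMM-normalised CPM on a log axis, 1 point per library (grey mock, red H2O2, circle H, triangle Q). Both H2O2 points of PSMB10, at 12.7 and 14.1 CPM, lie under its mock points, while PSMB5, PSMB6 and PSMB7 show H2O2 points between the mock points.

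The 6 ATPases form the unfolding ring at the base of the cap. With all libraries, 6 of 6 had a log2 fold change above 0, from 0.05 to 0.24, with a median of 0.11. Without mock Q, PSMC3 and PSMC5 were below 0, and without H2O2 Q, PSMC4 was, so 4 and 5 of 6 were then higher. PSMC6 stood at 137 and 114 CPM without and 158 and 139 CPM with H2O2, where both libraries lay above both mock libraries (log2 fold change 0.24, SE 0.20). PSMC1 stood at 132 and 121 CPM without and 133 and 151 CPM with H2O2 (log2 fold change 0.17, SE 0.18). In PSMC1 mock H and H2O2 H were thus nearly equal. PSMC5 stood at 255 and 222 CPM without and 246 and 247 CPM with H2O2, a difference of 0.05 on the log2 scale. PSMC2 did not overlap, and PSMC3 and PSMC4 did.

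PSMD1 and PSMD2 are the scaffolds of the base, and PSMD4 is a ubiquitin receptor. PSMD1 stood at 258 and 268 CPM without and 327 and 319 CPM with H2O2, with no overlap (log2 fold change 0.30, SE 0.19, edgeR adjusted p = 0.736). PSMD4 stood at 196 and 152 CPM without and 192 and 175 CPM with H2O2, where the groups overlapped (0.08, SE 0.21). PSMD2 stood at 452 and 501 CPM without and 457 and 497 CPM with H2O2, where H2O2 followed mock within each letter and the log2 fold change was 0.00 (SE 0.21).

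The lid of the cap removes the ubiquitin chain. Of its 8 genes 7 had a log2 fold change above 0, with a median of 0.19. Without mock Q, 6 did, with a median of 0.13, and without mock H 7, with a median of 0.16. PSMD12 stood at 82.5 and 103 CPM without and 114 and 123 CPM with H2O2 (log2 fold change 0.36, SE 0.20). PSMD6 stood at 70.0 and 65.7 CPM without and 84.6 and 86.8 CPM with H2O2 (0.34, SE 0.17). Neither overlapped between groups, and their edgeR adjusted p-values were 0.706 and 0.691. PSMD14, the deubiquitinase of the lid, stood at 269 and 259 CPM without and 302 and 299 CPM with H2O2, again without overlap (0.19, SE 0.19). PSMD3 stood at 309 and 277 CPM without and 311 and 285 CPM with H2O2, a difference of 0.03 on the log2 scale. PSMD7, a structural partner of PSMD14, was the 1 lid gene in the other direction, at 167 and 153 CPM without and 150 and 139 CPM with H2O2 (-0.14, SE 0.18). PSMD11 did not overlap (0.20), while PSMD13 (0.29) and PSMD8 (0.05) did.

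Over the whole cap 16 of 17 genes had a log2 fold change above 0, with a median of 0.11. In 8 of them both H2O2 libraries lay above both mock libraries, against 18.8% of all genes. Without the mock Q library 12 of 17 were higher and 5 lower, with a median of 0.10. Without mock H 15 were higher and 2 lower, with a median of 0.21. Cap subunits summed to 3462 and 3342 CPM in mock H and Q and to 3704 and 3705 CPM in H2O2. Core subunits summed to 3152 and 2474 CPM in mock and to 3126 and 2853 CPM in H2O2, so mock Q is the low library of the core. The ratio of cap to core was 1.10 and 1.35 in mock and 1.19 and 1.3 in H2O2. The H2O2 ratios lay between the mock ratios (log2 difference 0.03, two-sided exact permutation p = 1.0).

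**Figure D4:**
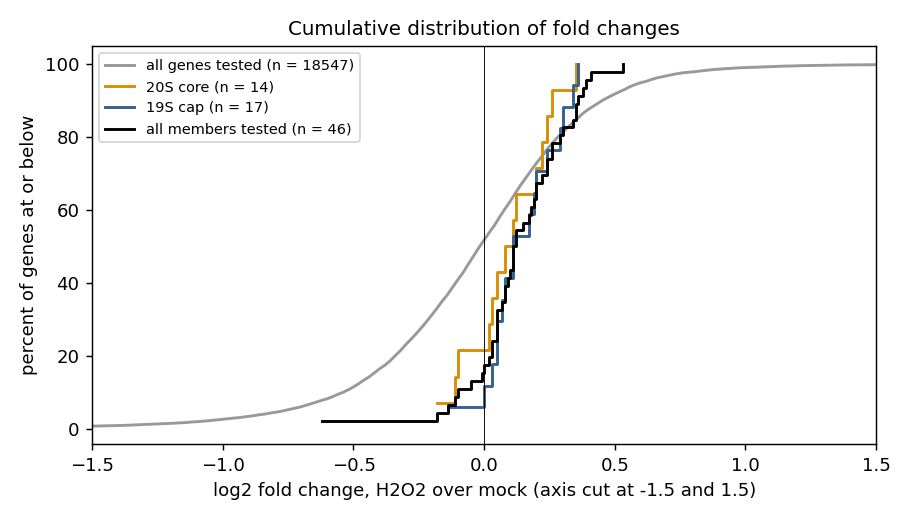
Percent of genes (vertical axis) at or below each log2 fold change, H2O2 over mock (horizontal axis), for the 14 core genes, the 17 cap genes, all 46 members tested and all 18547 genes tested. The members' curves are steeper than the curve of all genes and cross 0 lower, since 39 of 46 members lie above 0.

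Cap chaperones hold the ATPases during assembly and leave the finished particle. PSMD10 stood at 44.8 and 37.5 CPM without and 62.1 and 56.9 CPM with H2O2. Both H2O2 libraries were above both mock libraries, by 0.47 within H and 0.60 within Q on the log2 scale. Its log2 fold change of 0.53 (SE 0.19, 95% interval 0.05 to 1.01) was the highest of the tested members. The unadjusted p was 0.0357 in edgeR and the adjusted p 0.672. Of all genes, 2.98% were higher with an unadjusted p under 0.05. PSMD5 stood at 76.6 and 74.4 CPM without and 77.7 and 84.3 CPM with H2O2 (0.10, SE 0.17). PSMD9 stood at 30.3 and 29.9 CPM without and 28.4 and 29.7 CPM with H2O2 (-0.05, SE 0.17), and its groups were separate by less than 1 CPM.

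The PSMG genes encode the chaperones PAC1 to PAC4, which assemble the alpha ring. With all libraries, the 4 had log2 fold changes between 0.05 and 0.15. Without mock Q, 3 were above 0, with a median of 0.06, and without mock H 4 were, with a median of 0.21. PSMG2 stood at 81.9 and 67.3 CPM without and 88.9 and 76.2 CPM with H2O2 (0.15, SE 0.20), with overlap. PSMG1 stood at 42.4 and 41.7 CPM without and 45.7 and 45.8 CPM with H2O2, without overlap (0.12, SE 0.16). PSMG4 stood at 9.58 and 6.96 CPM without and 9.99 and 7.10 CPM with H2O2, where the libraries paired by letter and not by treatment (0.05, SE 0.30).

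The activators bind the ends of the core in place of the cap, and PSMF1 encodes an inhibitor of the core. Of the 5 genes 4 had a log2 fold change above 0, with a median of 0.26. Without mock Q again 4 did, with a median of 0.34, and without mock H 5, with a median of 0.19. PSME2 stood at 117 and 110 CPM without and 142 and 154 CPM with H2O2, without overlap (log2 fold change 0.39, SE 0.17, edgeR adjusted p = 0.676). PSME1, whose protein forms the same PA28 ring, stood at 136 and 87.0 CPM without and 116 and 106 CPM with H2O2, where the H2O2 libraries lay between the mock libraries (-0.01, SE 0.27). PSME3, the nuclear PA28 subunit, stood at 175 and 231 CPM without and 253 and 264 CPM with H2O2 (0.35, SE 0.22). PSME4, which encodes the activator PA200, stood at 168 and 247 CPM without and 223 and 276 CPM with H2O2, with overlap (0.26, SE 0.27). PSMF1 stood at 101 and 100 CPM without and 113 and 116 CPM with H2O2 (0.18, SE 0.17). PSMC3IP, the gene outside the proteasome, stood at 22.8 and 29.2 CPM without and 34.6 and 34.3 CPM with H2O2 (0.41, SE 0.21).

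The members that share an interferon element did not share a direction. Of the 6 that were tested, 3 had a log2 fold change above 0, from -0.62 in PSMB10 to 0.39 in PSME2, with a median of 0.02. Without mock Q, 2 of the 6 were above 0, with a median of -0.23, and without mock H 5 were, with a median of 0.33. The 34 tested members with a window and no such match had a median of 0.18. Theirs was 0.10 without mock Q and 0.18 without mock H, where the members with the element had the higher median. With the antioxidant response element the median was 0.15 over 15 tested members, of which 13 were higher. Members lacking that element had a median of 0.17 over 25, of which 21 were higher. For the CCAAT box the medians were 0.15 with and 0.16 without it, over 20 members each, of which 19 and 15 were higher. PSMC3IP, which encodes no proteasome protein, is counted among the 20 with the box and the 19 higher. It is also counted among the members without the antioxidant or the interferon element. Without the mock Q library the medians were 0.10 with and 0.10 without the antioxidant element, and 0.10 and 0.09 for the CCAAT box. The higher members were then 11 of 15 with and 17 of 25 without the antioxidant element. For the CCAAT box they were 14 of 20 with and 14 of 20 without it.

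Levels between genes were compared per kilobase of transcript, as the mean of the 4 libraries. Core subunits stood at 42.2 to 304 CPM per kilobase, with a median of 207, and cap subunits at 24 to 162, with a median of 92.0. PSMB1, PSMB3 and PSMA7 stood highest, at 304, 293 and 289 CPM per kilobase, and PSMA5 lowest of the core at 42.2. The length used for PSMA5 was 3729 nt, against a core median of 1008 nt, and a shorter expressed isoform would raise its value. Assembly chaperones stood at 10.6 to 46.6 CPM per kilobase, PSMB10 at 14.0, PSMB9 at 5.08 and PSMB8 at 0.362.

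Libraries of 1 group differed in the members along with transcript length. The log2 level in mock Q minus that in mock H was below 0 for 14 of 14 core genes, with a median of -0.36, and for 11 of 17 cap genes, with a median of -0.10. Between the H2O2 libraries these medians were -0.11 and -0.01. Core transcripts had a median length of 1008 nt and cap transcripts of 1954 nt. In the 9 tested members of up to 1000 nt the mock difference had a median of -0.39, and in the 8 of more than 3000 and up to 5000 nt it was 0.02. Genes with an mRNA model showed the same order of medians, -0.30 over 728 genes up to 1000 nt and 0.07 over 3710 genes of more than 3000 and up to 5000 nt. Across the 46 members, which share their libraries, the mock difference correlated with log10 length at Pearson's r = 0.69 and Spearman's rho = 0.68, against 0.21 and 0.24 across 13368 genes. For the log2 fold change between H2O2 and mock, r with length was 0.17 and rho 0.17 across members. With GC content they were -0.37 and -0.35 across members and -0.20 and -0.24 across genes. The part of length and GC content in the members' fold changes was not tested.

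**Figure D5:**
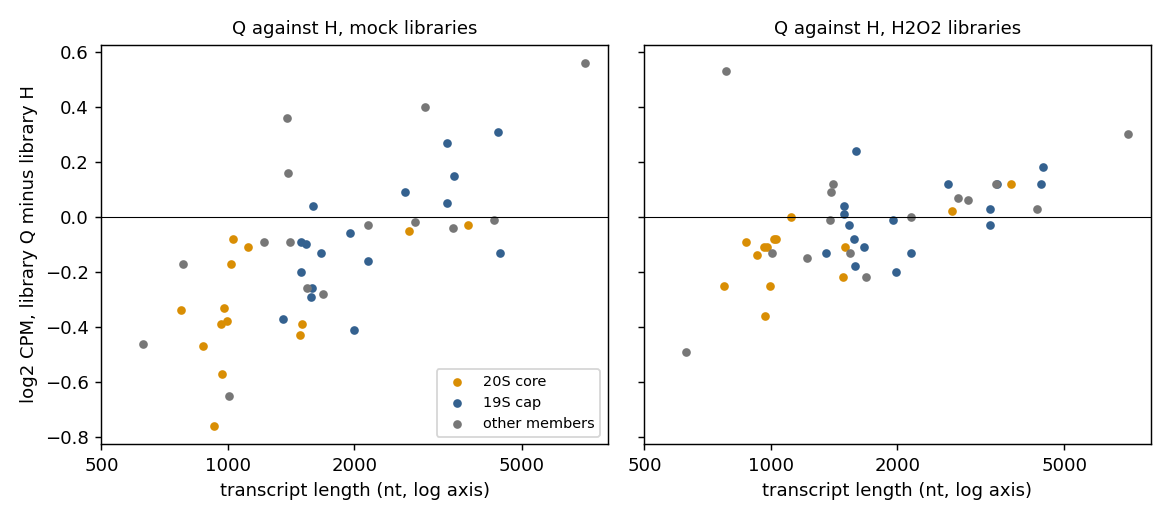
Log2 CPM in library Q minus that in library H (vertical axis) against transcript length in nt on a log axis, for the 46 tested members, with mock libraries on the left and H2O2 libraries on the right. In mock all 14 core genes lie below 0, and the longest member, PSME4, lies highest.

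Other genes of the pathway were taken from 4 lists, and none of their genes passed an adjusted p of 0.05 in edgeR. Of the 14 partners and subunits outside the PSM prefixes, 11 had a log2 fold change above 0, with a median of 0.15, against 48.2% of all genes above 0. Without mock Q again 11 were above 0, with a median of 0.22, and without mock H 8 were, with a median of 0.09. In 4 both H2O2 libraries lay above both mock libraries, against 18.8% of all genes. UCHL5, the deubiquitinase at the base of the cap, stood at 38.5 and 36.6 CPM without and 55.6 and 53.7 CPM with H2O2 (0.54, SE 0.17, adjusted p = 0.672). POMP, the maturation chaperone of the core, stood at 155 and 152 CPM without and 178 and 187 CPM with H2O2 (0.25, SE 0.17). Both were without overlap, whereas PAAF1, a cap chaperone, overlapped at 27.6 and 19.5 CPM without and 34.6 and 25.5 CPM with H2O2 (0.35, SE 0.27).

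Regulators of proteasome genes went both ways, with 8 of 12 above 0 and a median log2 fold change of 0.08, or 9 of 12 and 0.14 without mock Q. In 2 of the 12 both H2O2 libraries lay above both mock libraries and in 1 below, against 18.8% and 21.4% of all genes. NFE2L1, which encodes NRF1, stood at 338 and 308 CPM without and 219 and 254 CPM with H2O2. Its H2O2 libraries lay below both mock libraries (-0.45, SE 0.20, edgeR adjusted p = 0.678). RNA levels do not show the amount or cleavage of the NRF1 protein, and its part in the subunit genes was not tested. NFE2L2, which encodes NRF2, stood at 226 and 323 CPM without and 235 and 334 CPM with H2O2, with overlap (0.05, SE 0.29). DDI2, the protease that cuts NRF1, stood at 18.3 and 15.0 CPM without and 25.5 and 20.8 CPM with H2O2 (0.48, SE 0.22). NFE2L3, a relative of NRF1, stood at 20.8 and 34.3 CPM without and 42.4 and 43.2 CPM with H2O2 (0.64, SE 0.28). Neither overlapped. MAFF, a small MAF partner of these factors, stood at 16.8 and 31.6 CPM without and 30.4 and 36.5 CPM with H2O2 (0.47, SE 0.35), with overlap.

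Genes for ubiquitin and for delivery to the proteasome had 8 of 14 above 0 and a median of 0.04, or 6 of 14 and -0.02 without mock Q. UBA6, a ubiquitin-activating enzyme, stood at 67.5 and 72.3 CPM without and 94.7 and 93.9 CPM with H2O2 (0.43, SE 0.17, adjusted p = 0.672 in edgeR). UBQLN1, a shuttle receptor, stood at 138 and 145 CPM without and 174 and 178 CPM with H2O2 (0.32, SE 0.17). RPS27A, which encodes a ubiquitin fused to a ribosomal protein, differed more between letters, with 1168 and 685 CPM without and 1301 and 890 CPM with H2O2 (0.24, SE 0.38).

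Interferon and antigen-processing genes, the company of the immunoproteasome, had 8 of 14 above 0 and a median of 0.04. Within H, 4 of 14 were higher, with a median of -0.35, within Q 7, with a median of -0.05, and 3 in both. The pooled values rest on the H2O2 Q library, without which 1 of 14 was above 0, with a median of -0.41. Without mock Q, 9 were above 0, with a median of 0.18, and without mock H 4, with a median of -0.18. None had both H2O2 libraries above both mock libraries, and 2 had both below, against 18.8% and 21.4% of all genes. TAP1, the peptide transporter gene that lies between PSMB8 and PSMB9 on chromosome 6, stood at 10.9 and 15.6 CPM without and 11.1 and 17.7 CPM with H2O2 (0.12, SE 0.33). STAT2, a factor of the interferon response, stood at 65.7 and 70.9 CPM without and 45.1 and 52.3 CPM with H2O2, without overlap (-0.49, SE 0.18, adjusted p = 0.672 in edgeR). IRF1, which binds interferon elements, stood at 30.1 and 34.2 CPM without and 26.6 and 56.1 CPM with H2O2 (0.36, SE 0.38). HLA-B was high in H2O2 Q alone, with 6.69 and 6.68 CPM without and 4.38 and 19 CPM with H2O2 (0.81, SE 0.68). JAK1 followed the letters, with 173 and 397 CPM without and 117 and 278 CPM with H2O2 (-0.53, SE 0.57).

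Some counts may hold reads of other loci. Of the 49 members, 21 have named pseudogenes, 52 in all, with 13 for PSMC1 and 6 for PSME2. In 18 members an exon overlaps another gene, among them PSMB8 and PSMB9 with PSMB8-AS1, PSMA2 with MRPL32, PSMD13 with SIRT3, PSME1 with EMC9 and PSME2 with RNF31. Whether counting used strand is not given in the sources used here, so reads of opposite genes cannot be told apart. Members lie on 17 chromosomes, with 8 each on chromosomes 14 and 17.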

How the data were processed

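RNA-seq libraries of Huh7 cells, 2 mock and 2 treated with H2O2, were grouped by the treatment label. The submitters' processing notes name Bowtie 0.12.2 and TopHat 1.3.3 besides CASAVA and Cuffdiff, and mm8, hg19 and GRCh37 as builds, without their roles. Counting program and annotation are not given in the sources used here. Each of 58146 transcript models has a read count and an FPKM, per the file headers. The deposited counts are whole numbers that repeat over isoforms. Their sums exceed the mapped mates in every library, also with 1 model per gene, for which the source was not tested. The deposited FPKM values served only in alternatives.

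The members and lists were chosen with earlier results of these data known. Each gene was represented by the RefSeq mRNA model with most reads, or by any model where it had none. Genes with at least 1 CPM in at least 2 libraries were tested with edgeR 4.0.16 (R 4.3.3), using TMM, the quasi-likelihood test and treatment as the sole term, and adjusted by Benjamini and Hochberg over 18547 genes. This left 2 residual degrees of freedom, with a common biological coefficient of variation of 0.276. The fit was tested on simulated counts with less spread than these data, no letter effect and larger fold changes than any tested member had. That test does not show how well small changes are found here. Alternatives used DESeq2 1.42.0 and limma 3.58.1, other scalings, filters and model choices, and left out each library. Given in full were the catalytic and immunoproteasome subunits, the 2 largest and the smallest absolute fold changes of each other role and members with an unadjusted p under 0.05. Of each pathway list the 3 largest were named, with NFE2L1, POMP, TAP1 and IRF1, and NFE2L2 was added later. A few further members are described beside them. GENCODE v29, matched by RefSeq accession, gave length and GC content for 46 of 46 tested members, and RefSeq's GRCh38.p14 table gave promoters and chromosome neighbours.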

Additional observations from a re-analysis of the deposited data

How the results depend on the processing

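No member was called in any of the 11 alternatives that kept all libraries or the 4 that left 1 out. Over all genes DESeq2 called 162, the fit with no filter on low counts 9 and the fit with the letter as a replicate block 24, against 0 in the main test. Leaving out 1 library gave 0 to 4 called genes (4 without mock Q). The letter deviations of mock and H2O2 correlated at 0.639 over genes, but with 2 letters of unstated meaning the block is not an established pairing. It put 7 of 46 members (15.2%) at an unadjusted p under 0.05, below the 22.1% of all genes, against 2 members (4.35%) and 7.29% of all genes without it. The share of all genes with a fold change above 0 was 48.2%, and 58.9% and 59.0% in limma on log2(FPKM + 1) and log2(FPKM + 0.1), where 40 of 46 members were higher.

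Leaving out 1 library gave 29 to 42 higher members and 4 to 17 lower members. The median log2 fold change ran from 0.08 to 0.21 over members, from -0.05 to 0.26 over the core and from 0.10 to 0.21 over the cap. With all libraries kept, 4 members near 0 changed sign. PSMB5 was at -0.00025 with upper-quartile scaling and at -0.01 among genes with an mRNA model. PSMD2 was at -0.01 with upper-quartile scaling and with summed models and at -0.02 among genes with an mRNA model, where PSMD3 was at -0.0013. PSME1 was at 0.01 in DESeq2, with RLE size factors and with the FPKM filter, at 0.03 with mapped mates, with no filter and with the replicate block, and at 0.07 in both limma fits. The causes were not tested.

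NFE2L2 was not among the named genes followed with 1 library left out. Of those that were, 16 members and 5 other genes changed sign. Their log2 fold changes ran from -0.29 to 0.10 for PSMA1, -0.06 to 0.52 for PSMA3, -0.07 to 0.31 for PSMA7, -0.52 to 0.25 for PSMB1, -0.28 to 0.11 for PSMB4, -0.04 to 0.07 for PSMB5, -0.17 to 0.31 for PSMB6 and -0.12 to 0.21 for PSMB7. In the cap they ran from -0.03 to 0.26 for PSMC3, -0.05 to 0.19 for PSMC4, -0.05 to 0.15 for PSMC5, -0.07 to 0.08 for PSMD2, -0.05 to 0.11 for PSMD3 and -0.10 to 0.27 for PSMD4. For PSME1 the range was -0.30 to 0.36 and for PSMG4 -0.22 to 0.29. For HLA-B it was -0.60 to 1.51, for IRF1 -0.27 to 0.80, for JAK1 -1.28 to 0.19, for RPS27A -0.09 to 0.68 and for TAP1 -0.25 to 0.41. A group left with 1 library is assumed to vary like the other group. Tested members had at least 353 reads per library, so depth limits mainly PSMA8, PSMB8 and PSMB11, which fell under the filter.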
